A study of Mus musculus with 4 samples.

Results

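Metallothioneins are small cysteine-rich proteins that bind zinc and copper in the cytosol, and their genes are textbook targets of both zinc and glucocorticoids. The set described here was 8 genes: the metallothionein genes Mt1 and Mt2, the gene of the zinc-sensing transcription factor MTF1 (Mtf1), the zinc exporter genes Slc30a1 and Slc30a5, and the zinc importer genes Slc39a8, Slc39a10 and Slc39a14. A gene was taken through the array's probe sets whose platform annotation names that symbol and no other, which gave 8 probe sets, 1 for each gene, among 65956 features and 30142 genes. The 4 arrays measured lineage-negative, c-Kit-positive (LK) cells, a marrow fraction rich in blood stem and progenitor cells, from NOD mice, a strain that develops autoimmune diabetes. All were held in StemSpan medium for 4 h at 37 °C, 2 samples with 10 µM dmPGE2, a long-lived prostaglandin E2 analog, together with 10 µM dexamethasone, a synthetic glucocorticoid (the combination), and 2 with DMSO (the vehicle). No array carried either drug alone. The labels give neither age nor sex, and although the design text calls the duplicates biological, it does not say which animals gave the cells of each, so p-values measure the spread between these samples, which may be technical.

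MTF1 binds metal response elements in promoters when cellular zinc is high and turns on metallothionein genes and Slc30a1. Proteins of the SLC30 family move zinc out of the cytosol, either out of the cell or into organelles, and those of the SLC39 family move it into the cytosol. The glucocorticoid receptor acts on mouse Mt1 and Mt2 through elements upstream of Mt2, beyond the promoter windows considered here. The comparison asks which of these transcripts differ after exposure to both drugs at once.

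The promoters of both metallothionein genes and of Slc30a1 are shown because they are the windows of the set with more than 1 metal response element core. They come from RefSeq (build GRCm38.p6) and run from 250 bases before to 50 bases after an annotated start, 5′ to 3′ on the plus strand, at chr8:94178839-94179138 for Mt1, chr8:94172368-94172667 for Mt2 and chr1:191906531-191906830 for Slc30a1. Capitals mark the core of the metal response element, searched as TGCACNC or TGCGCNC on both strands, so that a match on the other strand reads GNGTGCA or GNGCGCA.
Mt1: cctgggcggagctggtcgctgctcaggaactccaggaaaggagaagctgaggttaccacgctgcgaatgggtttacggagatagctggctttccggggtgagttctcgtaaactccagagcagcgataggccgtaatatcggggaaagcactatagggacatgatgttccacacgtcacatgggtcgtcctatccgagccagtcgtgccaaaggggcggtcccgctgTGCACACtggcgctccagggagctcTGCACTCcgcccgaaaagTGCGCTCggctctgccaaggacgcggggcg
Mt2: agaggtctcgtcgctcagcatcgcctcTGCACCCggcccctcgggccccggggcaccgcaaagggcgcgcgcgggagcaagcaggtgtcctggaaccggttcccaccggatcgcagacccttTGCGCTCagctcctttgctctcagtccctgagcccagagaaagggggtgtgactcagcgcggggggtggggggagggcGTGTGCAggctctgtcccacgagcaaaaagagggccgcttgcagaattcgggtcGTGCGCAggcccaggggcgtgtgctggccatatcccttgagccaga
Slc30a1: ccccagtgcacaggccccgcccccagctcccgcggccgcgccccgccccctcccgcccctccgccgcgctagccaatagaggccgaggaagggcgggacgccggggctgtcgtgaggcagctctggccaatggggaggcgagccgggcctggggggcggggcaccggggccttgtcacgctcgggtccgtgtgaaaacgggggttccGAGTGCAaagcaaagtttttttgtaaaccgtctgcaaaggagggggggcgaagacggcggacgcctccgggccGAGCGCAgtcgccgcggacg

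The Mt2 window held 4 such cores, at -223, -128, -50 and 4 bases from the start, counted at the first base of each core with the start base as 0. The Mt1 window held 3, at -23, 2 and 20 bases, and the Slc30a1 window held 2, at -43 and 30 bases. Of 32851 RefSeq promoter windows of 300 bases, 25.7% held at least 1 core, 7.11% at least 2, 1.97% at least 3 and 0.517% at least 4. Windows were listed for 7 of the 8 genes, 9 windows in all. One core lay in the Slc30a5 window and one in 1 of the windows of Slc39a8, and the letters were not found in the windows of Mtf1 and Slc39a10. The hexamer TGTTCT of the glucocorticoid response element, held by 19% of all windows, was found in those of Mtf1 and Slc30a5 and in no other window of the set. It did not overlap a core, and the full palindrome of 2 hexamers with 3 bases between them, held by 3 windows genome-wide, was in none of them. These matches are letters in a window and do not show binding.

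**Figure D1:**
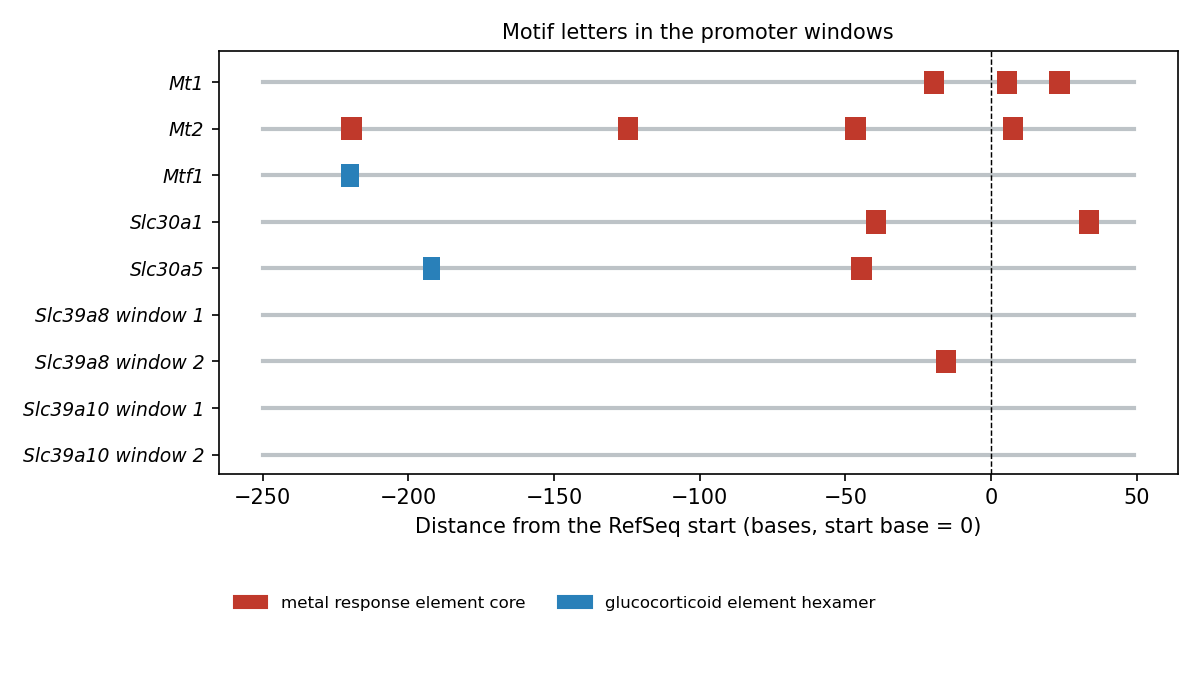
Positions of the metal response element core (red) and of the glucocorticoid element hexamer (blue) on either strand in the promoter windows, in bases from the RefSeq start, drawn as grey lines from 250 bases before to 50 bases after it. Mt2 has 4 cores, Mt1 has 3 and Slc30a1 has 2, and Slc39a8 and Slc39a10 have several windows.

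Values are the deposited RMA signals on the log2 scale, means are given ± SD over the 2 arrays of a group, and differences are combination minus vehicle with limma's moderated standard error (SE). The arrays' medians lay between 4.36 and 4.44, and the highest value of the 23 background probe sets was 5.55. All 8 genes lay above that value on all 4 arrays, Slc39a14 only just. Of the markers of the labelled cell type, Kit was at 10.51 and 9.62 in combination samples and at 10.18 and 10.32 in vehicle samples, and 4 T cell marker genes stayed within the background range on every array. The precision is limited by the number of arrays.

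None of the 8 genes passed limma's threshold, an adjusted p under 0.05 over all features, which 0.00303% of all features passed (2 of 65956). Slc39a10 was the 1 gene of the 8 with an unadjusted limma p under 0.05, against 5.58% of all features. The arrays of the groups did not overlap for 2 of the 8, Slc39a10 and Mtf1, both lower in the combination, against 34.2% of all features in either direction and 13.9% in that one. The median difference was 0.03 over the 8 genes and 0.02 over all features, with 5 genes higher and 3 lower. The unadjusted count was 2 without combination 2, with Mt1 added, against 5.56% of all features in that fit. It was 3 without vehicle 1, with Mt2 and Slc39a8 added, against 4.54% of all features. Both of these fits split replicate numbers 1 and 2 unevenly between the groups. An exact two-sided permutation test over 2 arrays against 2 cannot give a p below 0.333, which Slc39a10 and Mtf1 reached.

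**Figure D2:**
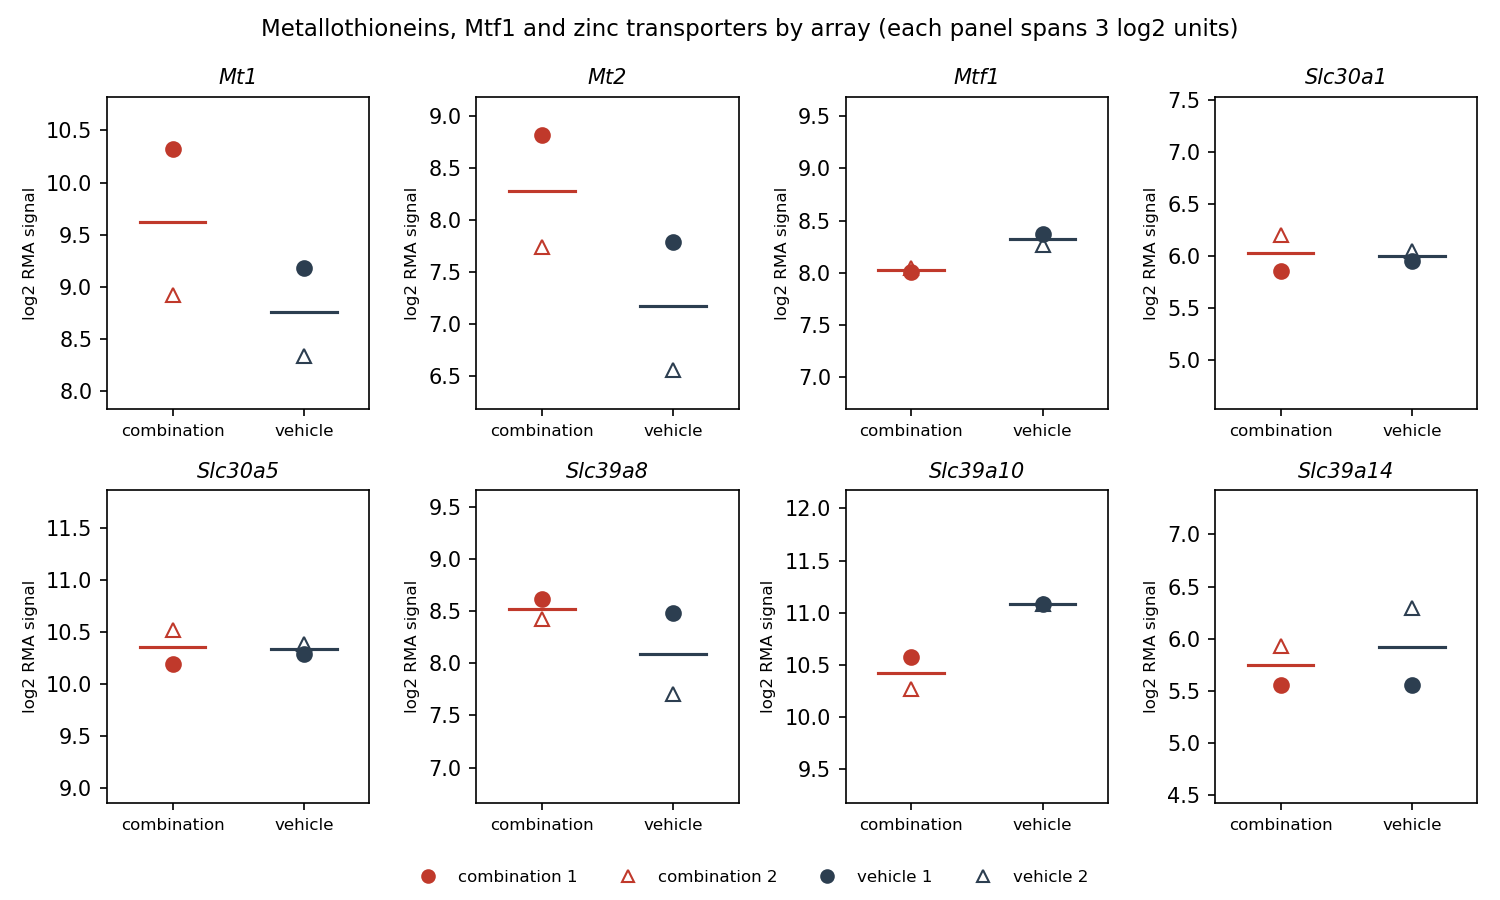
Log2 RMA signal of the 8 genes in each array, combination left of vehicle, with filled circles for replicate 1, open triangles for replicate 2 and a line at the mean of the 2 arrays. Every panel spans 3 log2 units, and Slc39a10 and Mtf1 are the genes whose combination arrays both lie below both vehicle arrays, while in Mt1 and Mt2 the groups overlap.

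Both metallothionein transcripts had higher means in the combination, by more than any other gene of the set, with arrays that overlapped between the groups. Mt1 was at 10.32 and 8.92 in combination samples and at 9.18 and 8.33 in vehicle samples. The highest array was combination 1 and the lowest was vehicle 2, and combination 2 lay below vehicle 1. The means were 9.62 ± 0.99 in the combination and 8.76 ± 0.60 in the vehicle (SD, n = 2 each). The difference of 0.86 (SE 0.55), 1.82-fold, had a 95% interval of -0.60 to 2.32 and did not pass (limma adjusted p = 0.94). It was 0.16 without combination 1, 1.56 without combination 2, 0.44 without vehicle 2 and 1.29 without vehicle 1. Leaving out 1 array also splits replicate numbers 1 and 2 unevenly between the groups, and array 1 was the higher one in both.

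Mt2, whose protein binds metals as that of Mt1 does, was at 8.81 and 7.74 in combination samples and at 7.79 and 6.56 in vehicle samples. The order of the 4 arrays was the same as for Mt1, and the overlap between combination 2 and vehicle 1 was slight. The means were 8.28 ± 0.76 in the combination and 7.17 ± 0.87 in the vehicle (SD, n = 2 each). The difference of 1.10 (SE 0.55), 2.15-fold, had a 95% interval of -0.36 to 2.57 (limma adjusted p = 0.93). It was 0.57 without combination 1, 1.64 without combination 2, 0.49 without vehicle 2 and 1.72 without vehicle 1, with the replicate numbers again unevenly split. The probe sequences were not used here, so cross-hybridisation between these similar transcripts was not tested.

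The spread within each group followed the replicate number. Array 1 exceeded array 2 by 1.40 in Mt1 and by 1.07 in Mt2 among combination samples, and by 0.85 in Mt1 and 1.23 in Mt2 among vehicle samples. Such a gap, of at least 0.8 in both groups, was present in 0.831% of all features (548), a limit set after the values were seen. Genes of other lists moved with the replicate number too. Array 1 exceeded array 2 in both groups in 13 of 25 genes of copper, iron and redox handling. It did so in 2 of 3 erythroid markers and in 0 of 7 LK progenitor markers. In the copper transporter gene Atp7b the gap was 1.31 among combination samples and 1.52 among vehicle samples. Neutrophil markers moved in the same way. The antimicrobial peptide gene Camp was at 12.80 and 8.41 in combination samples and at 13.51 and 7.63 in vehicle samples. The lactoferrin gene Ltf was at 10.22 and 6.04 in combination samples and at 10.38 and 5.60 in vehicle samples. In both granule genes array 1 was high and array 2 low in either group, and the differences between the group means were 0.03 for Camp and 0.14 for Ltf.

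Of the 8 neutrophil markers measured, 7 were higher on array 1 than on array 2 in both groups, all but the chemokine receptor gene Cxcr2. Their summed log2 signals were 82.1 and 70.9 in combination samples and 77.3 and 61.4 in vehicle samples. By means 7 of the 8 were higher in the combination. The differences of S100a8 (0.38), Ltf (0.14), S100a9 (0.09), Mmp9 (0.09) and Camp (0.03) were each smaller than their SE. Higher without overlap were 2 of the 8, against 20.4% of all features. Those 2 were Cxcr2, at 12.75 and 13.83 in combination samples and at 9.06 and 8.87 in vehicle samples, and the collagenase gene Mmp8, at 8.13 and 7.37 in combination samples and at 6.29 and 4.34 in vehicle samples. Their differences were 4.32 and 2.43, and Ly6g, a neutrophil surface gene, was lower without overlap. Ly6g and the gelatinase gene Mmp9 stayed within the background range on every array, and Mmp8 lay within it on vehicle 2. The part of these cells in the metallothionein values was not tested, and in such bulk samples fewer cells of a type and less RNA per cell cannot be told apart.

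**Figure D3:**
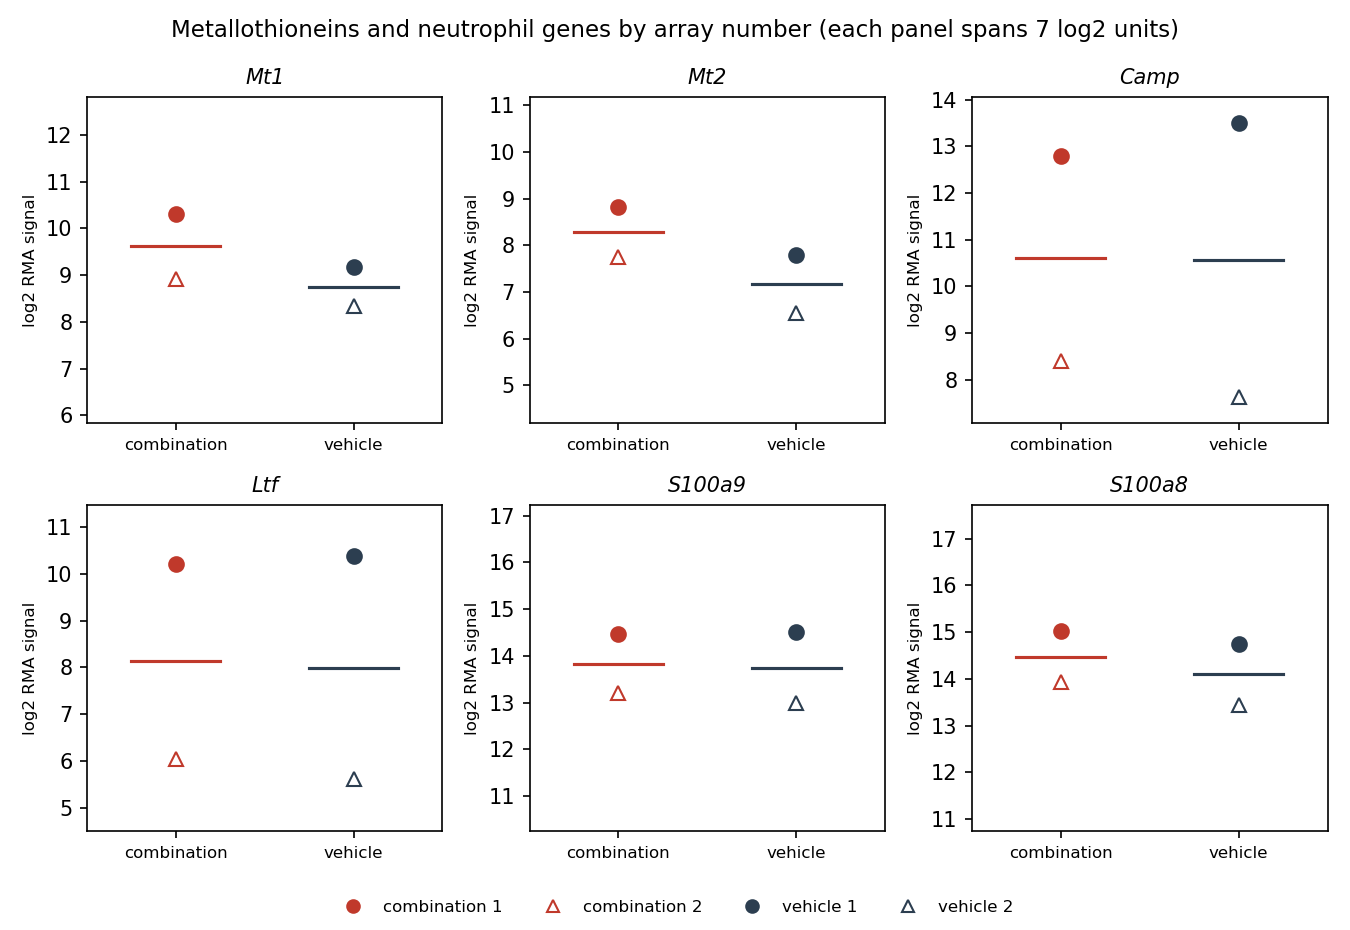
Log2 RMA signal of Mt1, Mt2 and 4 neutrophil genes in each array, combination left of vehicle, with filled circles for replicate 1, open triangles for replicate 2 and a line at the mean. Every panel spans 7 log2 units, and replicate 1 lies above replicate 2 in both groups in all 6 panels, by the widest margin in Camp.

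Slc39a10, which encodes the zinc importer ZIP10 and is repressed through MTF1 in zinc-replete mouse cells, had the clearest separation of the set. It was at 10.57 and 10.27 in combination samples and at 11.08 and 11.08 in vehicle samples. Both combination arrays lay below both vehicle arrays, which were nearly identical. The difference was -0.66 (SE 0.16), 1.58-fold lower in the combination, with a 95% interval of -1.08 to -0.24 and an unadjusted p of 0.011 in limma. It did not pass over all features (limma adjusted p = 0.73). Leaving out any 1 array kept the difference between -0.82 and -0.51.

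Markers of several cell types were lower in the combination, as Slc39a10 was, and others were higher. All 7 measured LK progenitor markers were lower by means, 3 of them without overlap, against 13.9% of all features lower without overlap. The 3 without overlap were Cd48 (-0.94, SE 0.27), Myb (-0.51, SE 0.16) and Gata2 (-0.11, SE 0.13). The differences of Kit (-0.18), Cd34 (-0.11) and Flt3 (-0.23) were smaller than their SE. The list's summed log2 signals were 73.7 and 75.1 in combination samples and 74.9 and 78.6 in vehicle samples. Of 5 monocyte or macrophage markers 3 were lower without overlap, Ccr2 (-1.77), Csf1r (-0.91) and Adgre1 (-0.56). The sums over the 5 were 41.3 and 42.0 in combination samples and 41.8 and 42.9 in vehicle samples. The other 2 of this list were higher, Ly6c2 by 0.11 with overlap and Cd14, a coreceptor for lipopolysaccharide, by 2.43 without overlap, the largest difference of the list. All 4 mast cell or basophil markers were lower by means, 2 without overlap, with sums of 38.3 and 39.1 in combination samples and 39.7 and 40.4 in vehicle samples. The 3 measured erythroid markers were lower by means, all with overlap, at a median difference of -0.56. Of 4 megakaryocyte markers 3 were higher by means. Ppbp was higher by 5.52 without overlap, with both vehicle arrays, at 4.95 and 4.33, within the background range. The differences of Pf4 (0.10) and Itga2b (0.10) were smaller than their SE, and Gp9 was lower (-0.37) with overlap. Over all features 20.4% were higher and 13.9% lower without overlap. None of these lists was within the background range on all arrays, and their part in the values of Slc39a10 was not tested.

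Mtf1 was at 8.01 and 8.04 in combination samples and at 8.38 and 8.26 in vehicle samples. Its groups did not overlap, and the gap between the nearest arrays was smaller than in Slc39a10. The difference was -0.30 (SE 0.13), with a 95% interval of -0.64 to 0.05 (limma adjusted p = 0.91). The transcript of the zinc-sensing factor was thus 1.23-fold lower by means, while the 2 metallothionein means were higher.

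The other importers spread more widely within the groups. Slc39a8 encodes ZIP8, a plasma membrane importer of zinc and manganese that NF-kB induces in immune cells. It was at 8.62 and 8.43 in combination samples and at 8.49 and 7.70 in vehicle samples, so that vehicle 1 lay among the combination arrays and vehicle 2 alone was low. Its difference was 0.43 (SE 0.29, limma adjusted p = 0.95), and 0.04 without vehicle 2 or 0.82 without vehicle 1.

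Slc39a14 encodes ZIP14, an importer of zinc, iron and manganese that interleukin-6 induces in liver. It was at 5.56 and 5.93 in combination samples and at 5.55 and 6.30 in vehicle samples, with array 1 of each group at the edge of the background range. Array 2 was the higher one in both groups, the reverse of the metallothioneins. The difference was -0.18 (SE 0.30, limma adjusted p = 0.98), and 0.19 without vehicle 2 or 0.01 without combination 1.

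The exporter genes differed least. Slc30a1, the plasma membrane exporter gene that MTF1 induces with the metallothioneins, was at 5.86 and 6.21 in combination samples and at 5.95 and 6.05 in vehicle samples. The vehicle arrays lay between the combination arrays, and the difference was 0.03 (SE 0.17), with a 95% interval of -0.42 to 0.49. Slc30a5, which loads zinc into the early secretory pathway, was at 10.19 and 10.52 in combination samples and at 10.29 and 10.38 in vehicle samples, in the same order of arrays. Its difference was 0.02 (SE 0.17), with a 95% interval of -0.42 to 0.46. Both differences turned to -0.022 and -0.032 once each array was centred on its median, so neither has a direction. A difference in signal as large as that of Slc39a10 in either direction lay outside both intervals. Slc30a1 lay not far above the background range, where RMA can understate a difference.

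**Figure D4:**
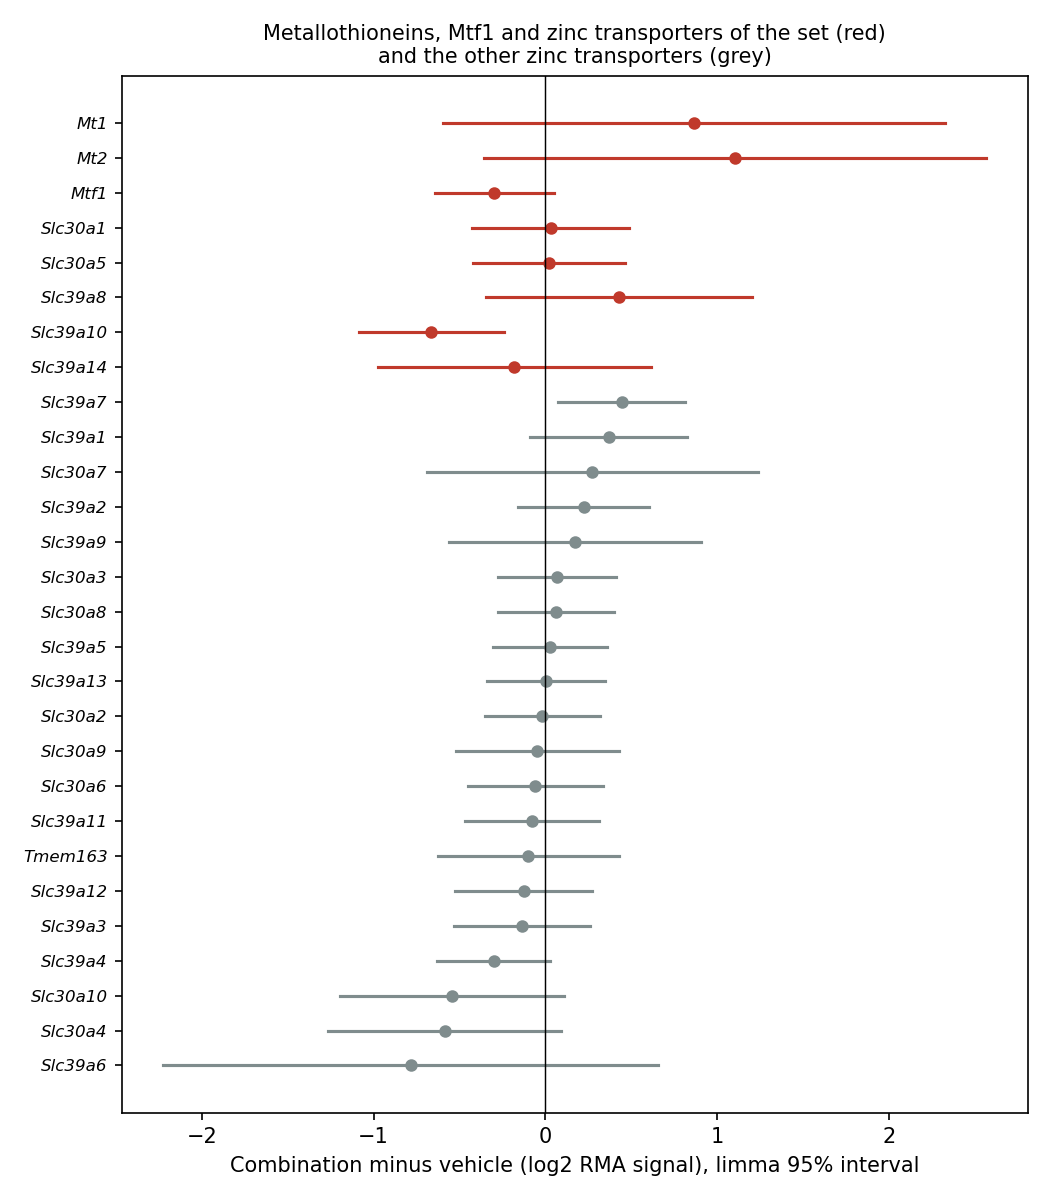
Combination minus vehicle in log2 RMA signal, with limma's 95% interval, for the 8 genes of the set (red) and the 20 other zinc transporter genes (grey, sorted by difference). Slc39a10, at -0.66, and Slc39a7, at 0.45, are the genes whose intervals leave out 0, and those of Mt1 and Mt2 are among the widest.

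The rest of the zinc transporter family was mixed in direction. Of 20 other SLC30, SLC39 and related genes, 0 passed limma's adjusted threshold, and with an unadjusted limma p under 0.05 there were 1 higher and 0 lower. These shares read against 3.14% of all features higher and 2.44% lower. The arrays did not overlap for 4 genes higher and 3 lower in the combination, against 20.4% and 13.9% of all features, and the list's median difference was -0.03. For 7 of the 20, all 4 arrays lay within the background range.

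Slc39a7, which releases zinc from the endoplasmic reticulum and Golgi, was at 8.21 and 8.30 in combination samples and at 7.89 and 7.72 in vehicle samples. Both combination arrays lay above both vehicle arrays, and the difference was 0.45 (SE 0.14, limma adjusted p = 0.83). The plasma membrane importer gene Slc39a1 was at 10.26 and 10.61 in combination samples and at 10.01 and 10.13 in vehicle samples, and Slc39a2 and Slc30a8, which also separated, stayed within the background range. In the other direction lay Slc39a4, the importer of dietary zinc, at -0.30, the vesicle transporter gene Slc30a4 at -0.58 and the manganese exporter gene Slc30a10 at -0.55. None of these 3 passed (limma adjusted p between 0.90 and 0.92). The widest spread was that of Slc39a6, an importer gene, which was at 9.92 and 11.32 in combination samples and at 11.01 and 11.80 in vehicle samples, with array 2 the higher one in both groups.

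The other metallothionein genes on the array, Mt3 and Mt4, are known from brain and from stratified epithelium. Mt3 was at 5.76 and 5.75 in combination samples and at 5.77 and 5.65 in vehicle samples. Mt4 lay between 3.64 and 3.92 on all arrays, within the background range. In neither gene did the arrays separate the groups.

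Among 25 measured genes of copper, iron and redox handling, 0 passed the adjusted threshold, and the median difference was -0.03. At an unadjusted p under 0.05 in limma 1 was higher and 1 lower, against 3.14% and 2.44% of all features. The arrays did not overlap for 5 genes higher and 3 lower, against 20.4% and 13.9% of all features, so these counts were near those shares. Tfrc, the transferrin receptor gene through which cells take up iron, was at 10.03 and 9.93 in combination samples and at 10.79 and 10.74 in vehicle samples. The groups lay clearly apart, with a difference of -0.79 (SE 0.13, limma adjusted p = 0.49). Slc11a1, the phagosomal metal transporter gene of macrophages, was at 6.35 and 7.16 in combination samples and at 5.75 and 5.95 in vehicle samples, a difference of 0.90 (SE 0.30, limma adjusted p = 0.85). The copper exporter gene Atp7a (0.63), the copper chaperone gene Cox17 (0.33) and the ferritin heavy chain gene Fth1 (0.22) were higher without overlap. The copper chaperone genes Atox1 (-0.17) and Ccs (-0.16) were lower without overlap, and limma's adjusted p was at least 0.93 for these 5.

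Beside the metallothioneins, 9 other classic targets of the glucocorticoid receptor were read. The list was chosen with its values known, so its count was fixed by that choice and is no evidence of a response, and every treated array carried dmPGE2 as well. All 9 were higher in the combination without overlap, against 20.4% of all features. All 9 also had an unadjusted p under 0.05 in limma, against 3.14% of all features higher at that level. The median difference was 1.14, and 0 passed the adjusted threshold. Tsc22d3, the glucocorticoid-induced leucine zipper gene, was at 7.04 and 7.07 in combination samples and at 5.88 and 5.78 in vehicle samples. Its difference was 1.22 (SE 0.13), those of Dusp1, Per1 and Nfkbia were 2.10, 2.07 and 1.91, and the lowest of the list was that of Zbtb16, at 0.73. Mt1 and Mt2, at 0.86 and 1.10, had an SE of 0.55 each. Whether the differences of these genes differ from one another was not tested.

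Interleukin-6 signalling through STAT3 induces metallothioneins and Slc39a14 in liver, and 9 genes of that axis were read beside them. At an unadjusted p under 0.05 in limma 1 was higher and 1 lower, against 3.14% and 2.44% of all features. Without overlap 2 were higher and 2 lower, against 20.4% and 13.9% of all features. The adjusted threshold was passed by 0, and the median difference was 0.10. Il6st, the gp130 receptor subunit gene, was at 9.04 and 10.12 in combination samples and at 11.34 and 12.01 in vehicle samples, far below in the combination (-2.09, SE 0.44, limma adjusted p = 0.63). The transcription factor gene Cebpb was at 6.71 and 6.79 in combination samples and at 6.36 and 6.21 in vehicle samples (0.47, SE 0.14, limma adjusted p = 0.81). The feedback inhibitor gene Socs3 stayed within the background range, and Il6 differed by -0.25.

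**Figure D5:**
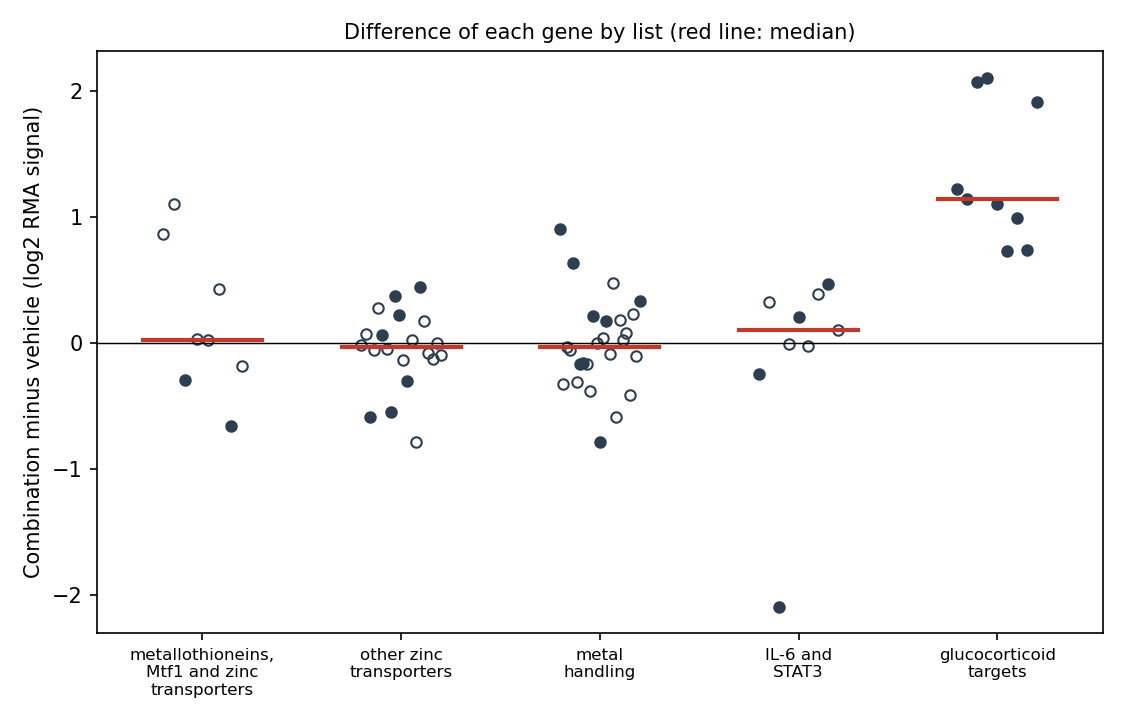
Combination minus vehicle in log2 RMA signal for each gene of 5 lists, with filled points where the arrays of the groups do not overlap, open points where they do, and a red line at the list's median. The medians lie at 0.03, -0.03, -0.03 and 0.10 from left to right, and at 1.14 for the glucocorticoid targets, whose points are all filled. These targets were chosen with their values known, and 20.4% of all features were higher without overlap.

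Likeness of pattern was measured as the Euclidean distance between the values of 2 genes over the 4 arrays, each centred on its own mean. It is a description with no test. Genes with symbols of predicted genes (Gm with a number, or ending in Rik) were left out, so the ranks below are among the other genes. Closest to Mt1 were Ampd3, an AMP deaminase gene, at a distance of 0.28, Crisp3, a cysteine-rich secretory protein gene, at 0.28 and Trim30c, a tripartite motif gene, at 0.28. Ampd3 was at 10.65 and 9.49 in combination samples and at 9.86 and 8.74 in vehicle samples. Closest to Mt2 were the immunoglobulin heavy chain segments Ighv8-5, Ighv1-64 and Ighv5-12, at distances of 0.26, 0.32 and 0.34, each with at least 1 array within the background range, as was Crisp3 on 3 of the 4 arrays. Mt1 ranked 8 by likeness to Mt2, and Mt2 ranked 16 by likeness to Mt1, at a distance of 0.43 between them.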

How the data were processed

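The deposited table has 4 columns of log2 signals, 1 per array. The authors' tools were RMA and Transcriptome Analysis Console, as the submitters' processing notes name them, and the arrays were made from 10 ng of total RNA per sample amplified and biotin-labelled for Affymetrix arrays. Neither version nor genome build is given in the sources used here. RMA draws the arrays towards 1 distribution and compresses dim signals, so differences of dim genes are understated and shifts in a cell's whole RNA content are lost.

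Of 72688 rows, 6732 control rows were left out. The other 65956 features were fitted together with limma 3.58.1 in R 4.3.3 (lmFit and eBayes, two-sided, group as the only term, 2 residual degrees of freedom), with Benjamini-Hochberg adjustment over all of them and a threshold of 0.05. The fit was tested on simulated data with planted changes larger than any difference of the set. The noise was independent on each array, so a shared effect of the replicate number was not simulated. Each gene was read through the probe set with the highest mean. The genes and lists were chosen with earlier results of these data known. Genes beyond the set were named by a rule: up to 4 in each direction with the smallest p among those whose arrays did not overlap. Slc39a6 was named after its values were seen. The alternatives were a replicate block, other priors, filters, normalizations, control rows kept, and each array left out.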

Additional observations from a re-analysis of the deposited data

How the results depend on the processing

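The 12 alternatives gave 96 recomputed differences of the 8 genes. Of these, 88 kept their direction, 8 turned, and 0 had a limma adjusted p under 0.05, the lowest being 0.19. Those that turned belonged to Slc30a1, Slc30a5 and Slc39a14. With the arrays centred on their medians, Slc30a1 was at -0.022 and Slc30a5 at -0.032. With 1 array left out, Slc30a1 lay between -0.14 and 0.21, Slc30a5 between -0.14 and 0.18 and Slc39a14 between -0.55 and 0.19. The median of the 8 genes lay between -0.14 and 0.17, and that of the other zinc transporters between -0.042 and 0.013, or at -0.085 with the arrays centred.

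Over all features, limma called 2 in the fit reported and 0 with an intensity trend, with either filter on dim features, after a second quantile normalization, with control rows kept and with any 1 array left out. In these 9 fits 2178 to 4658 features had an unadjusted p under 0.05 in limma, against 3679 in the fit reported. With the replicate number as a block, 19 features were called. Arrays with the same number deviated together (r = 0.33 across features, which are not independent replicates), but nothing in the labels says what the number marks. In that block Mt1 had an SE of 0.19, an unadjusted p of 0.0080 and an adjusted p of 0.39 in limma, and Mt2 an SE of 0.15, an unadjusted p of 0.00096 and an adjusted p of 0.19, with differences of 0.86 and 1.10 as without it. Within number 1 the difference was 1.14 for Mt1 and 1.03 for Mt2, and within number 2 it was 0.59 and 1.18. The count of genes of the set with an unadjusted p under 0.05, an alternative added after the data were seen, was 3 with the replicate block (Mt1, Mt2 and Slc39a10), against 8.34% of all features (5503), and between 1 and 3 with 1 array left out, against 4.54% to 7.06%. No gene of the set had a further probe set, so the choice of probe set had no alternative.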
